A study of Mus musculus with 12 samples.

Results

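The 47 genes described here encode transcription factors of the Lhx, Irx, Nkx, Dlx, Pax and Tbx families and of the family of Six2, Six3, Six4 and Six6, with Eomes counted among the T-box genes. They were taken as a fixed list named for regulators of organs other than the intestine, a name that does not hold for every member, since Nkx2-3 also acts in the gut mesenchyme. The list was drawn from 21853 protein-coding genes of the annotation. The rule names them by gene family, with earlier results of these data known. Beside Six2, Six3, Six4 and Six6 the list holds 8 Lhx, 6 Irx, 7 Nkx, 6 Dlx, 7 Pax and 9 T-box genes, and each of them matched 1 gene of the annotation.

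Histone marks were mapped by ChIP-seq with a spike-in of Drosophila S2 chromatin in crypts and villi of the mouse small intestine. Villi, the differentiated compartment, were scraped from the tissue, and crypts, which hold the stem and dividing cells, were released with EDTA and mechanical disaggregation. No genetic change or treatment separates the groups, and strain, age, sex and the number of pooled animals are not given in the sources used here. The series holds 12 libraries, 1 per compartment for the input and for each of 5 histone modifications, and 8 peak lists were used here, those of H3K27me3, H3K4me3, H3K4me1 and H3K9me3 in both compartments. The question was where each mark lies over these genes and whether its extent differs between crypts and villi. Because a group is 1 library, the compartments were compared without a test, the 95% Wilson intervals on shares of genes cover counting error only, and depth is unknown because the lists hold no read counts. In whole compartments, a mark in fewer cells and less mark per cell cannot be told apart.

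H3K27me3 is written by Polycomb repressive complex 2 and marks genes that a cell type keeps silent, in particular the developmental regulators of other lineages. H3K4me3 marks active or poised promoters, and its presence together with H3K27me3 is called bivalency. H3K4me1 accompanies enhancers and the flanks of promoters, and H3K9me3 marks heterochromatin. Homeobox, paired box and T-box factors each set the identity of particular organs or neurons, so most of them are thought to have no role in the adult intestinal epithelium.

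A gene was counted as marked when a peak overlapped its promoter, taken as each start site with 1 kb up- and downstream, and the locus is the gene body with these windows. The H3K27me3 list held 7611 peaks over 20.3 Mb in crypts and 13797 peaks over 35.6 Mb in villi, whereas the H3K4me3 lists were alike in size, with 16489 and 16977 peaks. Promoter H3K4me3 of marker genes followed the compartments only in part. It was present at 6 of 6 epithelial genes in both, at 5 of 6 crypts markers in crypts and 4 in villi, where Olfm4 had none, and at 7 of 7 villi markers in both. Of genes of other cells, 1 of 7 mesenchymal genes had it in crypts and 2 in villi, 0 of 6 lymphocyte genes in crypts and 3 in villi (Cd3e, Cd8a and Ptprc), and 1 of 5 neuronal and glial genes in either compartment.

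Sequence at the start sites differed widely among genes with the same mark. RefSeq promoter windows of 250 bases before to 50 bases after the start (GRCm38.p6, the assembly also named mm10) were matched for 34 of the 47 members, which is too few for a statement on the list as a whole. The windows printed here belong to the member with the highest and the member with the lowest CpG content among those under H3K27me3 in both compartments (Nkx6-1 and Lhx8), to Pax8, which had no H3K27me3, and to Dlx2 and Lhx2, whose H3K4me3 peak was found in villi only. CpG dinucleotides are in capitals, and each window is given 5′ to 3′ along its gene. The Nkx6-1 window lies on the minus strand at chr5:101664662-101664961, that of Lhx8 on the minus strand at chr3:154330511-154330810, that of Pax8 on the minus strand at chr2:24475550-24475849, that of Dlx2 on the minus strand at chr2:71546705-71547004 and that of Lhx2 on the plus strand at chr2:38351058-38351357.
Nkx6-1: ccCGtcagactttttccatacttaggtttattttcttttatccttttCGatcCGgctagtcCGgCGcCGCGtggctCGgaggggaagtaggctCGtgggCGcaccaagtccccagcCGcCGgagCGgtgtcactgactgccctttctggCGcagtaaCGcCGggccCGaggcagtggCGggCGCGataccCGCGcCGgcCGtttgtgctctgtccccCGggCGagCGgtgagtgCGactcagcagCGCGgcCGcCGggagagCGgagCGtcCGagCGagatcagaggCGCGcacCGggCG
Lhx8: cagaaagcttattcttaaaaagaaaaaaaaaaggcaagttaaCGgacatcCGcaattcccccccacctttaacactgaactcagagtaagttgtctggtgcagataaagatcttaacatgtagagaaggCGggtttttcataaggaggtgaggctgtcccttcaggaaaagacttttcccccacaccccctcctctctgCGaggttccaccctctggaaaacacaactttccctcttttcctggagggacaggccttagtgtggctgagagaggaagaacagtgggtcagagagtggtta
Pax8: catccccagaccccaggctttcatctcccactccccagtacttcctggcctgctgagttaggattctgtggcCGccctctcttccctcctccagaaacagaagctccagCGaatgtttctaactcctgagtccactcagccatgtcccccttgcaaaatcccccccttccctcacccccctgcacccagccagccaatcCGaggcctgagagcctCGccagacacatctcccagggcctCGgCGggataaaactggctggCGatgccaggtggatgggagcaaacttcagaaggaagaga
Dlx2: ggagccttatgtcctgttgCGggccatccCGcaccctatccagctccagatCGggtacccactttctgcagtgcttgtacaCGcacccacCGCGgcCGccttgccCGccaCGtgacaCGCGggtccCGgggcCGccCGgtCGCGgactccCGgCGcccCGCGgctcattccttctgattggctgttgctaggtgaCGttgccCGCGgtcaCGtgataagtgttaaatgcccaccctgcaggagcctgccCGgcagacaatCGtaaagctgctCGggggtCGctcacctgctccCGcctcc
Lhx2: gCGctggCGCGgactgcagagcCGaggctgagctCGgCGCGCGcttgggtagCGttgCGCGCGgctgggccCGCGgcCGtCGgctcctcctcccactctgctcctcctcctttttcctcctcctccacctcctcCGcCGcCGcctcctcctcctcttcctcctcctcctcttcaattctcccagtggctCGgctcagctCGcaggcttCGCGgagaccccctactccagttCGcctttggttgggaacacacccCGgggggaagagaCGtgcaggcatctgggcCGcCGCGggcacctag

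The Nkx6-1 window held 40 CpG sites, 1.18 times the number expected from its base composition, and all 300 bases lay under H3K27me3, H3K4me3 and H3K4me1 in both compartments. The Lhx8 window held 4 CpG sites, 0.24 times the expected number, and all 300 bases lay under H3K27me3 alone. Both were chosen among members under H3K27me3, so the mark over these windows follows from the choice. With 7 CpG sites and a ratio of 0.29, the Pax8 window lay under none of the 4 marks. At Dlx2, with 29 CpG sites and a ratio of 0.90, all bases were under H3K27me3 in both compartments, and 225 of 300 were under H3K4me3 in villi and 0 in crypts. The Dlx2 and Lhx2 windows were those with most bases under the H3K4me3 peak, so its presence there in villi follows from the choice. The Lhx2 window lies 12027 bp from the 5′ end of the gene, at an inner start. It, with 29 CpG sites and a ratio of 0.84, was fully under H3K27me3 in both compartments and fully under H3K4me3 in villi only.

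H3K27me3 lay at the promoter of nearly all members. A peak was found at 45 of 47 promoters in crypts and at the same 45 in villi (95.7%, 95% Wilson interval 85.8 to 98.8 in either), whereas 13.1% of all protein-coding genes had one in crypts and 16.1% in villi. Across all genes 0.631% had the promoter peak in crypts only and 3.62% in villi only, and among the members 0 of 47 did in either direction. The exceptions in both compartments were Pax8 and Tbx3. All 8 Lhx, 6 Irx, 7 Nkx and 6 Dlx genes and Six2, Six3, Six4 and Six6 were marked, and so were 6 of 7 Pax and 8 of 9 T-box genes.

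The share was between that of the Hox genes and that of the remaining genes of these families. All 39 Hox genes, which pattern the body axis, had a promoter H3K27me3 peak in both compartments. Of 24 other genes of the same families, 17 were marked in crypts (70.8%, 50.8 to 85.1) and 18 in villi (75.0%, 55.1 to 88.0), the difference being Pax4, a factor of pancreatic endocrine cells. Nkx1-2, Tbx6, Tbx10, Tbx19, Tbx22 and Mga had no promoter H3K27me3 in either compartment. Of 17 transcription factors of intestinal identity such as Cdx2 and Hnf4a, 1 was marked in crypts (Atoh1) and 3 in villi (with Gata4 and Foxa2), and all 17 had promoter H3K4me3 in both.

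**Figure D1:**
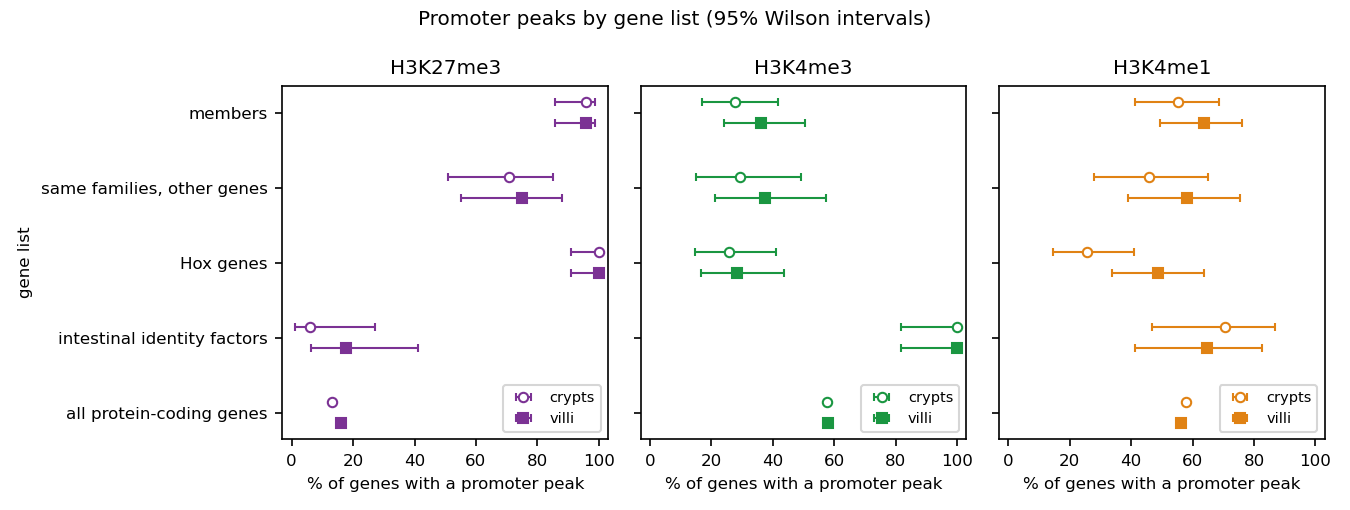
Share of genes with a promoter peak, in percent (x axis), for H3K27me3, H3K4me3 and H3K4me1 in 5 gene lists (y axis); open circles are crypts, filled squares villi, and bars 95% Wilson intervals. The members sit at 95.7% for H3K27me3 in both compartments, close to the Hox genes, and below all genes for H3K4me3.

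H3K4me3 was present at a minority of the members. A promoter peak was found at 13 of 47 in crypts (27.7%, 16.9 to 41.8) and at 17 of 47 in villi (36.2%, 24.0 to 50.5), against 57.7% and 57.9% of all genes. Both H3K27me3 and H3K4me3 were present at 12 members in crypts and 16 in villi, against 6.59% and 7.87% of all genes. That count follows from how common H3K27me3 was. Among genes with promoter H3K27me3, H3K4me3 was found at 12 of 45 members in crypts (26.7%, 16.0 to 41.0) and 16 of 45 in villi (35.6%, 23.2 to 50.2), and at 50.4% and 48.9% of all such genes. The members' interval was below the value of all such genes in crypts, and in villi it reached past it. The lists were not scaled by the spike-in, so the larger counts in villi do not mean more H3K4me3.

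Promoter H3K4me1 was found at 26 members in crypts (55.3%, 41.2 to 68.6) and 30 in villi (63.8%, 49.5 to 76.0), close to the 57.9% and 56.1% of all genes. Among members with promoter H3K27me3 it was found at 25 of 45 and 29 of 45, against 63.3% and 65.1% of all such genes. H3K9me3 had a peak over 0 of 47 loci in either compartment, which allows a share of up to 6.38% (3 counts of 47). Of all genes 2.93% had one over the locus in crypts and 2.39% in villi, both below that limit.

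H3K27me3 alone was found at 19 of the 45 marked members in crypts and 16 in villi, against 32.9% and 31.7% of all genes with promoter H3K27me3. H3K27me3 with H3K4me1 and no H3K4me3 was found at 14 and 13 members, against 16.7% and 19.3% of those genes. Those with H3K27me3 alone included the lung and thyroid factor Nkx2-1, the nephron progenitor factor Six2, the forebrain and eye factors Six3 and Six6, and the muscle stem cell factor Pax7. All 3 marks were present at 11 members in crypts and 16 in villi, against 46.6% and 45.8%. The 11 of crypts were Lhx1, Lhx4, Six4, Irx3, Nkx6-1, Dlx1, Dlx4, Pax5, Tbx1, Tbx20 and Eomes. H3K27me3 and H3K4me3 without H3K4me1 were found at Irx2 in crypts, and no mark at Pax8 in either compartment.

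**Figure D2:**
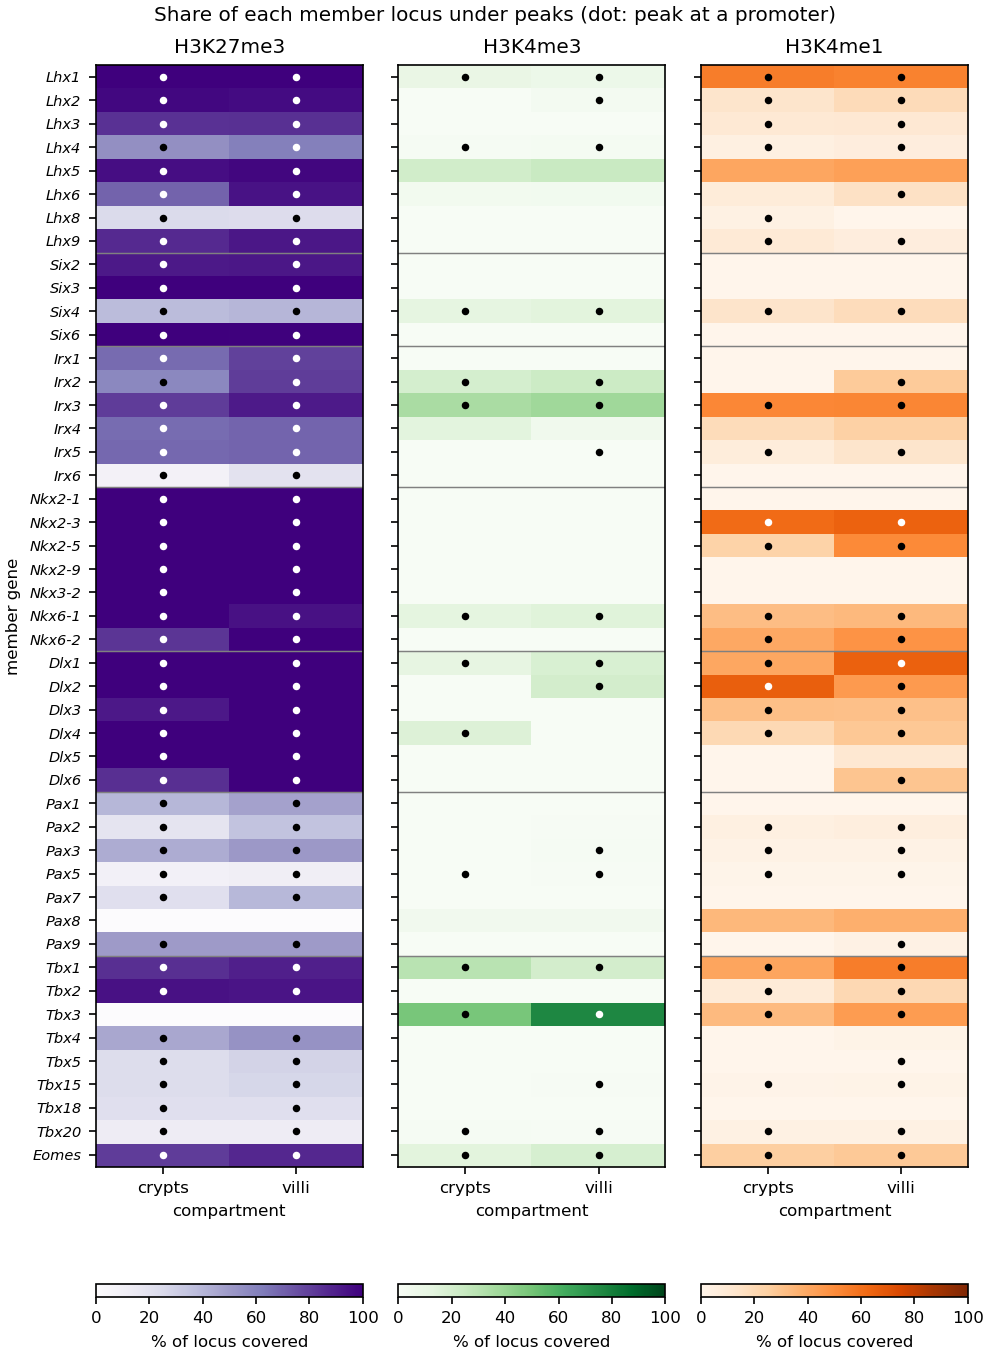
Share of each of the 47 member loci under peaks, in percent (colour, 0 to 100), for H3K27me3, H3K4me3 and H3K4me1 in crypts and villi (columns); dots mark a peak at a promoter, and grey lines separate families. The Nkx and Dlx rows are nearly all dark for H3K27me3, and Pax8 and Tbx3 are empty.

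H3K27me3 was not limited to the start sites but lay over most of the locus. In crypts 81.2% of the median member locus was covered, and in villi 89.8%, with Pax8 and Tbx3 included. For all genes with promoter H3K27me3 in both compartments the medians were 9.71% and 15.5%. Within a gene, the median difference of villi minus crypts was 1.24 percentage points for the members and 1.90 for those genes. The loci of the members were shorter, with a median of 10.4 kb, so genes were also compared within classes of length. Among loci under 20 kb, the 29 members with the promoter peak in both compartments had medians of 94.2% and 99.4%, and the 1074 other genes with it had 40.2% and 55.5%. Among loci of 20 kb or more, the 16 such members had 31.9% and 43.4%, and the 1603 other genes 3.54% and 5.60%. The members' medians were thus above those of other marked genes in both classes of length. Such coverage was not particular to them, since the Hox genes, with a median locus of 4.41 kb, had medians of 100% in both compartments.

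Median coverage differed by family, from the Nkx and Dlx genes at the top to the Pax and T-box genes at the bottom, but the families overlapped. In crypts the T-box genes ran from 0 to 94.2% and the Lhx genes from 24.2 to 100%. The families also differed in length, with a median locus of 4.57 kb for Nkx, 6.21 kb for Dlx, 29.5 kb for T-box and 82.8 kb for Pax genes. The Nkx and Dlx families had medians of 100% in both compartments, Six2, Six3, Six4 and Six6 95.6% and 95.9%, and the Lhx genes 85.5% and 93.2%. The Irx genes had 67.3% and 74.5%, the Pax genes 21.4% and 39.4%, and the T-box genes 22.9% and 27.9%. Across the 45 marked members, locus length and percent covered had a Spearman's rho of -0.69 in crypts and -0.75 in villi, and length and covered kb one of 0.85 and 0.86. These are descriptions across genes, which are not independent replicates and share their libraries. Long members therefore had more kb under the mark and a smaller share of the gene.

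The whole locus was covered at 12 members in crypts and 14 in villi, 11 of them in both. Of all genes with promoter H3K27me3 in both compartments 5.11% were fully covered in crypts and 6.72% in villi, and of the 39 Hox genes 20 and 25. The former genes are longer, with a median locus of 29.8 kb against 10.4 kb for the members. Shares of fully covered genes within classes of length are not given here. The 11 members were Lhx1, Six3, Nkx2-1, Nkx2-3, the heart factor Nkx2-5, Nkx2-9, the skeletal factor Nkx3-2, Dlx1, Dlx2, Dlx4 and Dlx5. Nkx6-1 was fully covered in crypts and to 94.5% in villi. Nkx6-2, Dlx3 and Dlx6 were fully covered in villi, and to 83.1%, 92.0% and 84.8% in crypts. At the other end, Irx6 was covered to 8.55% in crypts and 19.7% in villi, and Pax5, the B cell factor, to 9.26% and 11.5%.

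Along the genes, H3K27me3 reached further downstream of the 5′ end than upstream. The 5′ end is the outermost end of the gene, so inner starts of some members lie downstream of it. Shares of all genes at these positions are not given here. Neither this shape nor the dip described next can therefore be called particular to the members. At 10 kb upstream of the 5′ end 17.0% of the members were covered in crypts and 25.5% in villi, and at 10 kb downstream 63.8% and 70.2%. The mark had a dip at the 5′ end itself. In crypts 76.6% of the members were covered there, 87.2% at 1 kb upstream and 91.5% at 1 kb downstream, and in villi the shares were 80.9%, 91.5% and 89.4%. The base at the 5′ end was uncovered at 11 members in crypts and 9 in villi. Of those, 4 had H3K4me3 over that base in both compartments (Irx2, Irx3, Tbx1 and Tbx3).

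**Figure D3:**
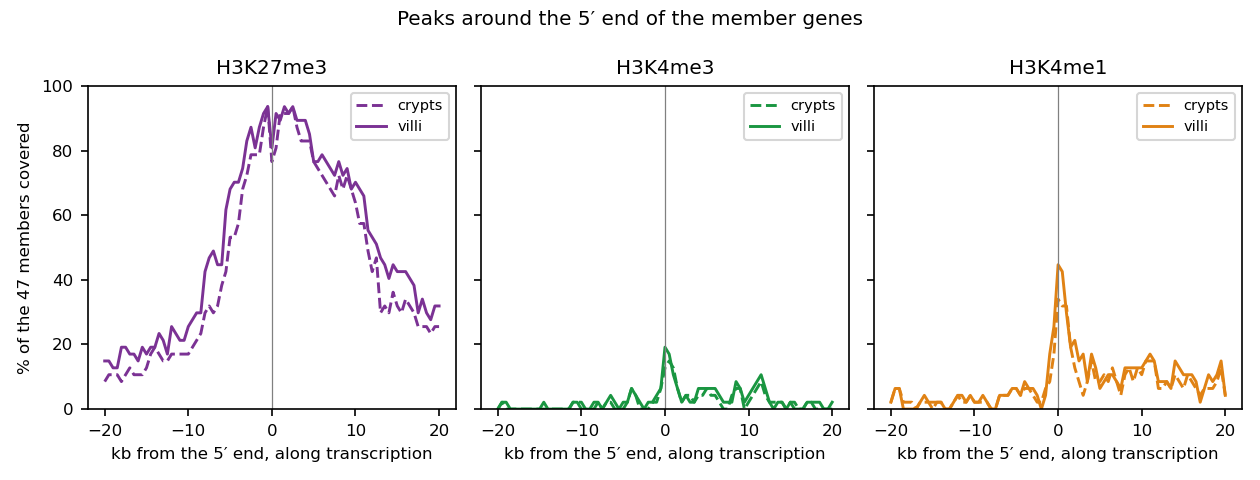
Share of the 47 members covered by a peak, in percent (y axis), every 0.5 kb from 20 kb upstream to 20 kb downstream of the 5′ end (x axis); dashed lines are crypts and solid lines villi. H3K27me3 covers 63.8% of the members at 10 kb downstream in crypts and 17.0% at 10 kb upstream, with a dip at the 5′ end.

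The H3K27me3 peaks over members were wide and high within their lists. There were 88 distinct peaks in crypts and 97 in villi, with a median width of 5.84 and 6.19 kb, against 1793 and 1610 bp in the whole lists. Of these, 36 in crypts and 37 in villi were wider than 95% of their list. Their score, read here as the −log10 p-value of the authors' peak caller, had a median at percentile 85.5 of the list in crypts and 90.9 in villi. The H3K4me3 peaks over members stood at the opposite end, with 21 peaks in crypts and 27 in villi and median scores at percentile 17.3 and 22.2. H3K4me1 peaks were in the middle, with 57 and 74 peaks and medians at percentile 42.2 and 60.9.

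More of the locus was covered in villi than in crypts at 29 of the 45 marked members, less at 5, and the same at 11, which are the loci covered in full in both. Across all genes with promoter H3K27me3 in both compartments, 79.7% had more in villi and 15.7% less, so the direction is that of the lists as a whole. Over the 47 loci the covered length summed to 477.9 kb in crypts and 550.8 kb in villi. Of the difference of 72.9 kb, 31.7 kb came from Pax7 and Pax2. When both lists were limited to the 7611 highest peaks, an alternative added after seeing the data, 27 members still had more in villi, and the median in villi was 87.2%.

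The members with the most H3K27me3 in villi were Pax3, Pax7, Lhx4, Tbx15, Lhx2 and Pax2. Pax3, a neural crest and muscle factor, had 42.2 kb under the mark in crypts and 49.1 kb in villi. At Lhx4, a pituitary and motor neuron factor, the values were 29.7 and 33.3 kb, and at Tbx15, a factor of the skeleton and skin, 26.3 and 30.4 kb. Lhx2, a factor of the eye, forebrain and hair follicle, had 30.6 and 30.3 kb. These loci are 31.5 kb (Lhx2) to 114.9 kb (Tbx15) long, and of them only that of Lhx2 was nearly filled, to 97.3% and 96.5%.

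The largest differences were at 5 long or middle-sized genes, all with more in villi. Pax7 had 20.9 kb in crypts and 38.4 kb in villi, a difference of 17.6 kb. Pax2, a kidney and eye factor, had 14.9 and 29.1 kb, a difference of 14.1 kb. At both, the widest peak, which reached the promoter, was wider in villi and further peaks lay in the gene body. The widest peak measured 13.3 kb in crypts and 21.6 kb in villi at Pax7, and 16.3 and 28.5 kb at Pax2. Near the Pax7 promoter, gaps of 369 and 412 bp between crypts peaks were filled in villi. With peaks under 1 kb apart joined, the widths were 22.9 and 32.1 kb at Pax7 and 24.9 and 42.0 kb at Pax2. The difference was 6.96 kb at Pax3 and 4.27 kb at Pax5. Lhx6, a factor of cortical interneurons, had 17.0 kb in crypts and 23.0 kb in villi, or 69.6% and 94.0% of its locus. In the other direction, the differences of villi minus crypts were small, with -0.43 kb at Nkx6-1, -0.269 kb at Lhx8, -0.246 kb at Lhx2, -0.092 kb at Tbx2 and -0.017 kb at Six6. The value of Nkx6-1 is the length of a gap of 430 bp that divided its domain in villi, and at Lhx8 a gap of 393 bp divided the domain in villi.

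**Figure D4:**
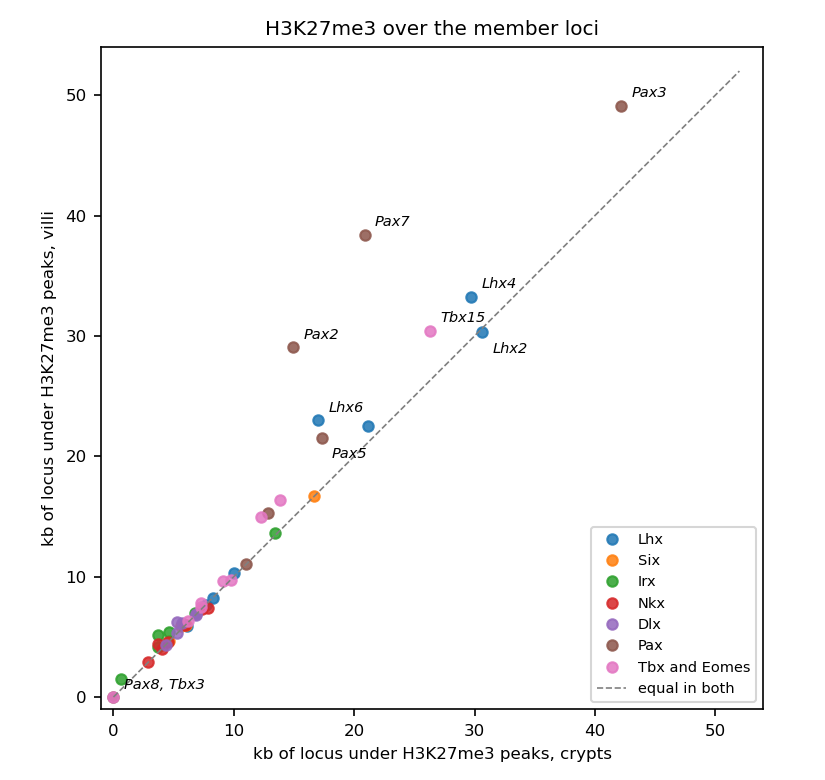
Length of each member locus under H3K27me3 peaks, in kb, in crypts (x axis) and villi (y axis); 1 point per gene, coloured by family, with the dashed line where both are equal. Pax7 (20.9 and 38.4 kb) and Pax2 (14.9 and 29.1 kb) lie furthest above the line, and no point lies more than 0.43 kb below it.

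Of the 88 distinct H3K27me3 peaks in crypts, 87 met a peak in villi, the exception being a peak of 422 bp within an intron of Pax3. Of the 97 in villi, 77 met a peak in crypts and 20 did not, and none of the 20 covered a start site, which the presence of promoter H3K27me3 at the same 45 members in both compartments nearly fixes. In the whole lists 9.63% of peaks in crypts and 55.6% in villi met none of the other compartment, so unmatched peaks were not particular to the members. The 20 lay in Pax2 (5), Pax7 (5), Pax3 (2), and 1 each in Lhx4, Lhx6, Lhx9, Irx5, Pax1, Pax5, Tbx5 and Tbx18, and only those of Lhx6, Lhx9 and Tbx18 overlapped an exon. Most were narrow and low, and the widest was in Pax7 at chr4:139765743-139772778, with 7036 bp and a score of 29.1. The nearest crypts peak was 37.8 kb away.

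All 6 Irx genes, the Iroquois factors of heart, limb and nervous system, had more of the locus covered in villi, by a median of 10.6 percentage points. As given above, 79.7% of all marked genes also had more in villi, and many Nkx and Dlx loci could not gain because 6 of 7 and 4 of 6 were fully covered in crypts. Irx1 was covered to 67.5% in crypts and 79.6% in villi, Irx2 to 57.5% and 80.7%, and Irx3 to 81.1% and 91.2%. The values of Irx4 and Irx5 were closer, with 67.2% and 69.3% for Irx4 and 68.2% and 69.4% for Irx5. The H3K27me3 peak of Irx6 was narrow in both compartments, 656 bp in crypts and 1513 bp in villi, and covered no start site in crypts. With a promoter window of 250 bp instead of 1 kb, Irx6 and Irx3 had H3K27me3 in villi only.

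The widest H3K27me3 peak was wider in villi at 35 members and narrower at 10, and the median log2 ratio of villi over crypts was 0.22, with quartiles of 0.01 and 0.56. Across all genes with promoter H3K27me3 in both compartments, 82.3% had a wider peak in villi and 17.7% a narrower one, so this direction too is that of the lists as a whole. The members' counts depend on small gaps. With peaks under 1 kb apart joined, 40 members were wider and 5 narrower, the 5 being Six3, Irx4, Irx5, Pax9 and Tbx18. Of these only Six3 was also among the 10. The largest ratio as deposited was at Nkx2-3, a factor of the gut mesenchyme and spleen. Its peak measured 11.3 kb in crypts and 36.5 kb in villi, while its locus of 4.57 kb was fully covered in both. In crypts, gaps of 344 and 375 bp set the peak apart from its neighbours, and in villi these gaps were filled.

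Neighbouring members shared domains in the Dlx family, whose genes lie in pairs and act in limbs, branchial arches and interneurons. Dlx1 and Dlx2 lay under 1 peak of 29.3 kb in crypts (chr2:71521774-71551029). In villi Dlx1 and Dlx2 lay under separate peaks of 14.5 and 17.7 kb with a gap of 401 bp between them, a further gap of 745 bp lay near the Dlx1 end of the crypts domain, and 95.7% of the 9.43 kb between the genes was covered. Dlx5 and Dlx6 lay under a common peak of 31.4 kb in villi (chr6:6854065-6885498). In crypts the peak over Dlx5 measured 15.7 kb (chr6:6868231-6883900) and reached only the 3′ end of Dlx6, covering none of its start sites. Dlx6 lay mainly under 2 other peaks there, of 8.90 and 4.27 kb, and the gap of 397 bp between the latter and the Dlx5 peak was covered in villi. Values of these pairs are therefore not independent. Dlx3 and Dlx4, 15.2 kb apart, shared no peak, and 32.4% of the interval was covered in crypts and 45.2% in villi.

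Between other neighbours the mark was broken. Of the 55.0 kb between Six2 and Six3, 23.2% was covered in crypts and 46.1% in villi. Tbx2 and Tbx4 are 44.5 kb apart, with 9.97% and 31.6% of the interval covered. The intervals on either side of Nkx2-9 differed little between the compartments, with 7.30% and 7.48% covered towards Nkx2-1 and 16.4% and 14.6% towards Pax9.

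Where H3K4me3 was present at a member promoter, most peaks were low and lay within H3K27me3, with Tbx3 as the clearest exception. In crypts the median peak was 1075 bp wide and in villi 916 bp, with median scores at percentile 17.3 and 19.8. At genes with H3K4me3 and no H3K27me3 the median widths were 1959 and 1879 bp, and the scores stood at percentile 66.8 and 68.1. At all genes with both marks the widths were 1096 and 1085 bp and the percentiles 26.2 and 29.7. In crypts 12 of 13 and in villi 16 of 17 of the member peaks overlapped H3K27me3, and 9 and 12 of them lay wholly under it. At all genes with both marks 1267 of 1545 peaks in crypts and 1492 of 1857 in villi overlapped H3K27me3, and 509 and 676 lay wholly under it. In the upper 50% of each list by score, 1 member had promoter H3K4me3 in either compartment (Tbx3) and 0 had both marks. Promoter H3K27me3 remained at 42 members in crypts and 45 in villi. Shares of all genes at this cut are not given here, so these counts do not set the members apart from other genes.

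The H3K4me3 peaks that lay only partly under H3K27me3 were those of Irx2, Irx3, Irx5 and Tbx1, a factor of the pharyngeal apparatus. The Irx3 peak measured 1573 bp and 1720 bp, of which 50.9% in crypts and 85.1% in villi lay under H3K27me3. The Irx2 peak was under H3K27me3 to 33.7% in crypts and 73.5% in villi. At Tbx1 the share was alike in both compartments, 39.8% and 41.0%. The peaks of Irx3, Irx5, Tbx1 and Tbx3 had higher scores than the other H3K4me3 peaks at member promoters. At Eomes, a factor of trophoblast and of lymphocytes, the peak lay wholly under H3K27me3, with 1215 bp in crypts and, in villi, 1656 bp.

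The H3K4me3 call differed between compartments at 6 members. It was present in crypts only at Dlx4 and in villi only at Lhx2, Irx5, Dlx2, Pax3 and Tbx15, which is 1 and 5 of 47, against 1.06% and 1.27% of all genes. The Irx5 call rests on the edge of the window. Its villi peak lies at the start of Crnde, a neighbouring gene, 955 bp from the nearest Irx5 start, and crypts had a peak at the same place that ended 23 bp outside the window. The remaining 5 peaks were 759 to 1075 bp wide with scores of 12.5 to 24.0, where the threshold was 10. These scores were low in lists with median scores of 173 in crypts and 126 in villi. At these 5, the nearest H3K4me3 peak of the other compartment was 5.47 kb (Pax3) to 97.3 kb (Tbx15) outside the promoter window.

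Each of these 5 peaks lay wholly under H3K27me3, which was present in both compartments. The peaks found in villi were at chr2:38350754-38351512 (Lhx2), chr2:71546048-71546929 (Dlx2), chr1:78196434-78197291 (Pax3) and chr3:99253542-99254358 (Tbx15), and the peak found in crypts at chr11:95145163-95146237 (Dlx4). Promoter H3K4me3 of 3 of the 6 lymphocyte genes and of the mesenchymal gene Col1a1 was also found in villi only, and the part of other cells in the difference was not tested. For H3K4me1, Lhx8 had the promoter peak in crypts only and Lhx6, Irx2, Dlx6, Pax9 and Tbx5 in villi only, against 5.69% and 3.95% of all genes. The Tbx5 call also rests on the window, since a crypts peak at the same place ended 2 bp outside it.

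Some members had H3K4me3 within the gene and none at the promoter. In crypts these were Lhx5, Lhx6, Irx4 and Pax8, and in villi the same 4 and Pax2, against 2.35% and 2.56% of all genes. Lhx5, a factor of the developing forebrain, had a pair of such peaks in both compartments, the nearest at 4009 bp from the start in crypts and 3933 bp in villi. The Lhx6 peak was 2348 bp from the nearest start in crypts and 2422 bp in villi. The Pax2 peak of villi was 449 bp wide, with a score of 14.3, near the 3′ end of the gene.

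Of the 2 members without promoter H3K27me3, Tbx3 had promoter H3K4me3, a mark that goes against the label of a silent regulator, although the lists hold no expression values. Tbx3, a T-box repressor of limb, mammary gland and heart, lies at chr5:119670669-119684724 and had no H3K27me3 over its locus. A broad H3K4me3 peak covered its 3 start sites, with a width of 7482 bp in crypts and of 9838 bp in villi. Its width was above 99.7% of the list in crypts and 99.9% in villi, and its score of 311 and 362 stood at percentile 71.3 and 94.5. Together with a further peak of 1770 bp in villi, H3K4me3 covered 48.5% of the locus in crypts and 76.4% in villi, and H3K4me1 32.8% and 44.3%. The nearest H3K27me3 peak was 3771 bp from the locus in crypts and 249 bp in villi. With a promoter window of 5 kb, Tbx3 was therefore counted as marked in both compartments. Of the 147.9 kb between Tbx3 and Tbx5, a forelimb and heart factor, 16.1% was covered by H3K27me3 in crypts and 23.7% in villi.

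Pax8, a thyroid and kidney factor, lies on the minus strand at chr2:24420560-24475599. It had none of the 4 marks at its 5 start sites. A promoter without H3K27me3, H3K4me3 and H3K4me1 was found at 32.6% of all genes in crypts and 30.9% in villi, and does not show whether a gene is silent. The nearest H3K27me3 peak was 96.9 kb from the locus in crypts and 100.3 kb in villi. Within the gene, 2 H3K4me3 peaks were found in both compartments, with widths of 1139 and 1089 bp in crypts, and of 1030 and 1248 bp in villi. The former lay 4706 bp from the nearest start in crypts and 4830 bp in villi, and the latter near the 3′ end of the gene. H3K4me1 had 7 peaks over 33.9% of the locus in crypts and 11 over 37.0% in villi. The highest of them in crypts had a score of 57.8, at percentile 98.0 of the list.

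**Figure D5:**
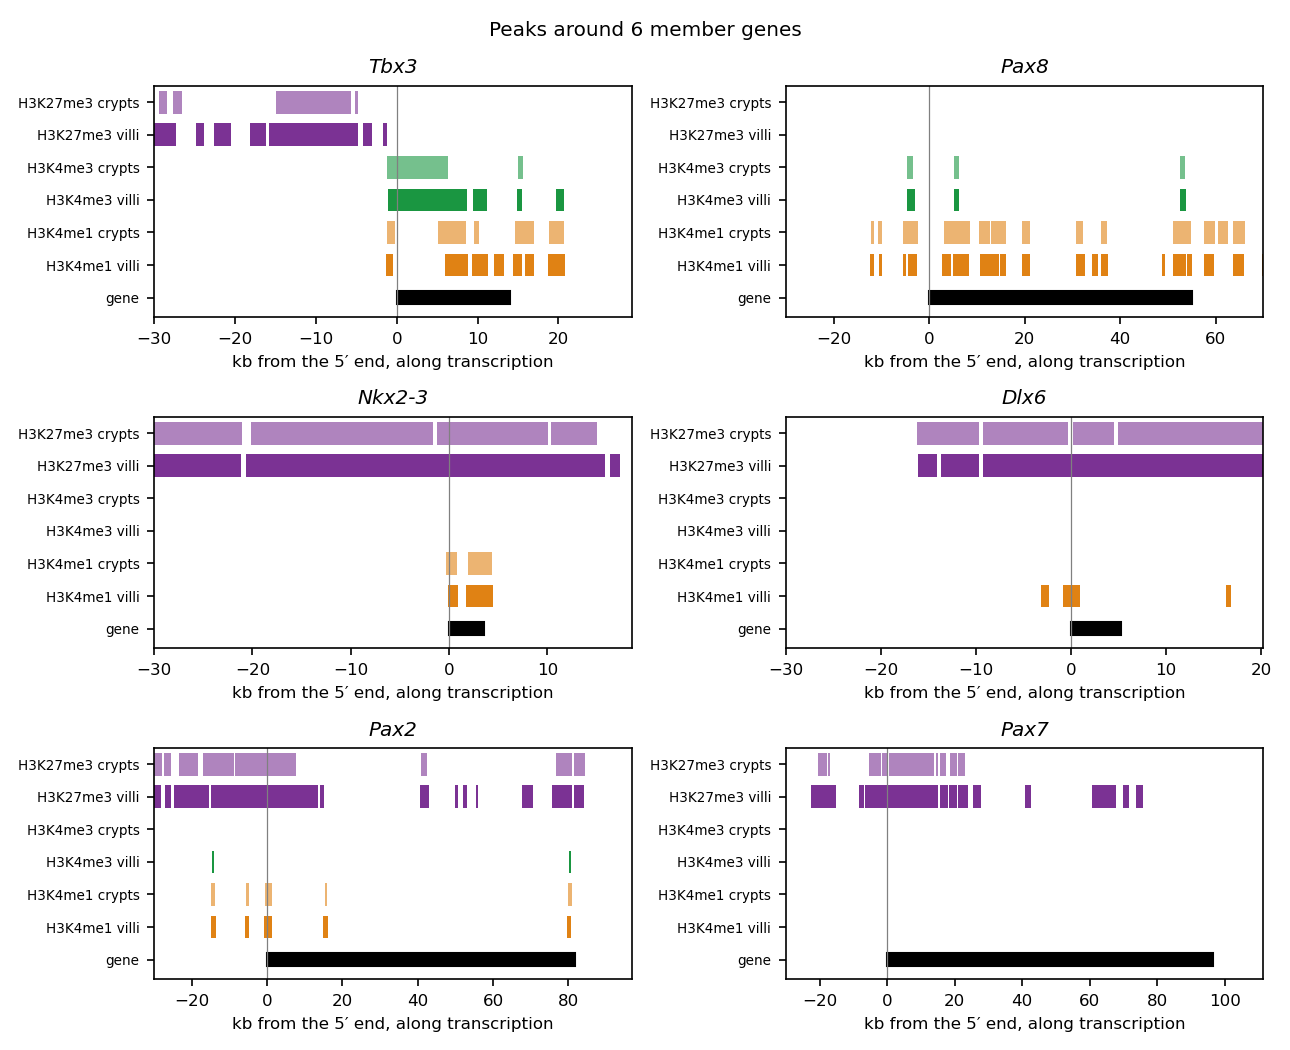
Peaks of H3K27me3 (purple), H3K4me3 (green) and H3K4me1 (orange) around 6 members, with crypts in the lighter and villi in the darker shade; the x axis is the distance in kb from the 5′ end along transcription and the black bar the gene. Tbx3 and Pax8 have no H3K27me3 over the gene, the gaps on either side of the Nkx2-3 peak in crypts are filled in villi, and Pax2 and Pax7 have more peaks within the gene in villi.

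H3K4me1 within the H3K27me3 domains was uneven. In the Nkx family it covered 61.5% of the Nkx2-3 locus in crypts and 64.9% in villi, and 23.3% and 50.8% of that of Nkx2-5. At Nkx2-1, Nkx2-9 and Nkx3-2 it covered none. In the Dlx family it covered 40.0% of Dlx1 in crypts and 65.5% in villi, whereas at Dlx2 the values were 66.3% and 44.6%. None was found over Six2, Six3, Six6, Irx1, Irx6, Pax1, Pax7 or Tbx18 in either compartment, which with the 3 Nkx genes makes 11 of 47 members, against 31.7% of all genes. More of the locus was covered by H3K4me1 in villi than in crypts at 31 members and less at 5. Of all genes 35.5% had more in villi and 32.7% less, and of genes with promoter H3K27me3 in both compartments 47.7% and 33.9%. With 1 library per compartment this difference was not tested. For spike-in scaled signal, the paper reports strongly decreased intensity in villi of marks near the H3 N-terminus, H3K4me1, H3K4me3 and H3K9me3 among them. It attributes this decrease to cleavage of the H3 tail. The lists used here were not scaled, so wider coverage or more calls in villi do not mean more of a mark.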

How the data were processed

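ChIP-seq libraries of crypts and villi, 1 per compartment and modification, were analysed as deposited peak lists. The authors aligned read pairs with Bowtie 1.1.2 to mm10 and dm6, dropped duplicate (samblaster) and ambiguous reads, and ran the peak caller MACS2 2.1.1 at a p-value of 1e-10 (deepTools 3.1 served their signal tracks). A 5% spike-in scaled those tracks and not the lists. Each deposited peak has a score, read here as a −log10 p-value because it is 10 or more throughout, though a q-value on that scale is possible. Scores depend on depth and were compared only within a list. Gaps in the peak numbers show that the lists were reduced by a step not given in the sources used here. The H3K9me2 lists and the inputs were not used here.

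Peaks were placed on protein-coding genes of GENCODE M21 (GRCm38), with an overlap of at least 1 bp, in Python 3.11.15 with NumPy 2.4.6, SciPy 1.17.1 and Matplotlib 3.10.9. Members and gene lists were chosen with earlier results of these data known. All 47 members are accounted for by state. Named with values are the 6 with most H3K27me3 in villi, the 5 with the largest difference in each direction, those without promoter H3K27me3, with a differing H3K27me3 or H3K4me3 call, with H3K4me3 and no H3K27me3, and those sharing a peak. Other genes and calls named in the text were chosen after their values were seen. Promoter windows are from RefSeq, and for Dlx2 and Lhx2 the window with most bases under the H3K4me3 peak was taken. Alternatives covered the promoter window, the 5′ end alone, the overlap, the score, flanks and merging of peaks.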

Additional observations from a re-analysis of the deposited data

How the results depend on the processing

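Of 83 alternative values, 25 were labelled as moved, 0 as reversed and 58 as the same. The last label does not mean equal. It includes members with H3K4me3 in villi, 17 as reported and 23 with a promoter window of 5 kb. It also includes members with more H3K27me3 in villi, 29 as reported and 41 with 10 kb on either side of the gene. Promoter H3K27me3 was found at 42 to 46 members under every window, overlap and score setting tried. H3K4me3 depended on the setting. With a promoter window of 5 kb, 20 members had it in crypts, 19 had it with H3K27me3 in crypts, and 2 had it in crypts only (Dlx4 and Tbx5). With a window of 250 bp, H3K27me3 was found in villi only at 2 members. Around the 5′ end of each gene alone, 11 members had H3K4me3 in villi, 10 of them with H3K27me3, and 3 in villi only (Dlx2, Irx5 and Pax3).

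In the upper 50% of each list by score, H3K4me3 was found at 1 member in crypts and 1 in villi, both marks at 0 in either, and H3K4me1 at 12 in crypts and 19 in villi. How many of all genes would be lost at that cut is not given here. In that setting 0 members had H3K4me3 in crypts only and 0 in villi only, 3 had H3K27me3 in villi only (Six4, Irx2 and Irx6), the median covered share in villi was 87.2%, and the median log2 width ratio was 0.16. The same share was 87.2% with equal numbers of H3K27me3 peaks in both lists, an alternative chosen after seeing the data. With 10 kb on either side of the gene the medians were 43.9% in crypts and 49.8% in villi. With peaks under 1 kb apart merged they were 84.3% and 97.8%, and the width ratio was 0.18. With 1 value per distinct pair of peaks it was 0.21. The cause of these differences was not tested.

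The count of members with more H3K27me3 in villi ranged from 23 to 41 over the alternatives. No paired analysis was possible because each compartment and mark has 1 library. Without read counts, a peak missing from a list can be a mark below the threshold, and the low scores of the member H3K4me3 peaks put most of them close to it.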
